A study of Drosophila melanogaster with 3 samples.

Results

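Promoter-bound summits of the repressor Deadpan (Dpn) that lie at single-direction promoters numbered 2000 of 6253 in Drosophila melanogaster embryos, a share of 32.0% (exact Clopper-Pearson 95% interval 30.8 to 33.2%). A summit is the position of strongest enrichment within a peak of chromatin immunoprecipitation sequencing (ChIP-seq), the assay that sequences the DNA bound by a protein. A summit was a member when it lay within 500 bp of the start site of a protein-coding gene and was not within 500 bp of any start site of a divergent pair. A divergent pair was a minus-strand start and a plus-strand start of another gene at a higher coordinate, at most 500 bp apart. Of the remaining summits, 1095 (17.5%, 16.6 to 18.5%) lay at divergent promoters and 3158 lay farther from every protein-coding start. The rule used only position, so peak signal, replicate support, the side of the start and the DNA sequence were not part of it.

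All samples belonged to 1 group. They were whole embryos of both sexes pooled, aged 0 to 16 h, of a transgenic line (labelled dpn-GFP) that stably carried Dpn fused at its C-terminus to green fluorescent protein (GFP), and the precipitation was with an antibody to GFP. There were 3 biological replicates of sonicated chromatin with fragments of 200 to 800 bp, and a control file entered each peak call. The promoter that drives the fusion was not given in the sources used here. Chromatin of every embryonic cell type was mixed, so no peak can be assigned to a cell type and no tissue marker can be checked in peak lists. No comparison group was present: values below describe the pooled peaks and their spread over the replicates, which may be partly technical.

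Dpn is a basic helix-loop-helix (bHLH) protein of the Hairy and Enhancer of split (E(spl)) class, known from neural stem cells (neuroblasts), where it helps to hold back differentiation. Proteins of this class bind the E-box forms CACGTG and CACGCG and recruit the corepressor Groucho. Many fly genes start back to back and share a short stretch of upstream DNA. A single-direction promoter, as the term is used here, has no divergent protein-coding start of another gene within 500 bp. Housekeeping promoters in flies often carry the word TATCGATA, bound by Dref, or Motif 1, with the core GGTCACACT, bound by M1BP, whereas many developmentally regulated promoters carry a TATA box or the GAGA factor core GAGAG.

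The sequences that the results below turn on are shown first. All are from Release 6 of the genome (dm6), written 5′ to 3′ on the strand of the gene, and all lie outside annotated exons. Windows of 81 bp were taken around the summits of the 3 strongest members, none of which held any of the 12 words searched within 50 bp of the summit, and of 2 strong members that held the TATA form TATAAA (capitals; TTTATA where it lies on the opposite strand).
CG14100, chr3L:19590585-19590665, minus strand: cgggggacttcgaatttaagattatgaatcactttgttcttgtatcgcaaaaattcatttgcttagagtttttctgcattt
Ugalt, chrX:2703854-2703934, minus strand: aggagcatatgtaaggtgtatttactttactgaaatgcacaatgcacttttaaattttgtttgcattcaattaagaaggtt
gish, chr3R:16280692-16280772, plus strand: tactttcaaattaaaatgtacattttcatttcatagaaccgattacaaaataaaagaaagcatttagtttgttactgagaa
CG31145, chr3R:23669797-23669877, minus strand: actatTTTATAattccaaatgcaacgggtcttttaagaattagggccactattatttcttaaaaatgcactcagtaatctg
Rtnl1, chr2L:4997612-4997692, minus strand: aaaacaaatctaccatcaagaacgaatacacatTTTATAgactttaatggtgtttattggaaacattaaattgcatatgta

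Members that held the Dref word (capitals) are shown with 30 bp on either side. They are the members of highest signal with that word whose sequence lay outside exons and upstream of the start. TATCGATA is its own reverse complement.
eEF1gamma, chr3R:29220101-29220168, plus strand: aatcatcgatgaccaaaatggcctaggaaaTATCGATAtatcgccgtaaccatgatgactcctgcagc
CG7006, chr3R:24850555-24850622, plus strand: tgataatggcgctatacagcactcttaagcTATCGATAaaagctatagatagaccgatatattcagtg
Rnp4F, chrX:5322712-5322779, minus strand: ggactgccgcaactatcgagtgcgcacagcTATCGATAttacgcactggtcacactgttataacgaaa

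The Motif 1 core is shown likewise (GGTCACACT, or AGTGTGACC on the opposite strand, in capitals).
beta-PheRS, chr3R:24252695-24252763, minus strand: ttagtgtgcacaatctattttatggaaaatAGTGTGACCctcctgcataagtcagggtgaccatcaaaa
Meltrin, chr3R:14697300-14697368, minus strand: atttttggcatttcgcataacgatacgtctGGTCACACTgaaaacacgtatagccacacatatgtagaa
Vha68-2, chr2L:12974128-12974196, plus strand: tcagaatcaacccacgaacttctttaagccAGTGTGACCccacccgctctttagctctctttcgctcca

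The E-box forms of the Hairy class were rare among members, and these are the strongest that could be shown (CACGTG, its own reverse complement, at the first 3 genes; CACGCG, or CGCGTG on the opposite strand, at the last 3, in capitals).
fok, chr2L:20085191-20085256, minus strand: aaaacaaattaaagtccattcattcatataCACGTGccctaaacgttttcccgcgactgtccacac
Dysb, chr3L:18867643-18867708, plus strand: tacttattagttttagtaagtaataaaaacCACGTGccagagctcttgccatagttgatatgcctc
RpL24, chr2L:13395140-13395205, minus strand: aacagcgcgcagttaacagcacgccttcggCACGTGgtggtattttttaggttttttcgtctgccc
Phs, chr3L:15619706-15619771, plus strand: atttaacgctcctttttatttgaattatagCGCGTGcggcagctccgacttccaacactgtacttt
dnc, chrX:3329032-3329097, plus strand: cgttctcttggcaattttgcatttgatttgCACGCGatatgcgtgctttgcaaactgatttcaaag
Kdm2, chr3R:9053160-9053225, plus strand: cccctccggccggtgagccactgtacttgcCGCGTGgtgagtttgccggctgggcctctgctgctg

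Most single-direction genes had no Dpn summit. Among the 10130 protein-coding genes outside divergent pairs, 1777 (17.5%, 16.8 to 18.3%) had a thresholded summit within 500 bp of a start, beside 27.7% of all 13945 protein-coding genes and 2086 of the 3815 genes in divergent pairs (54.7%, 53.1 to 56.3%). The difference, single-direction minus divergent, was -37.1 percentage points (Newcombe 95% interval -38.9 to -35.4, counting error only). In the first 6253 peaks of each replicate list, single-direction shares were 18.4, 16.1 and 17.6% in replicates 1, 2 and 3, and divergent shares were 52.3, 50.4 and 55.3%. The values of the groups did not overlap, with differences of -33.9, -34.4 and -37.7 points (mean -35.3 ± 2.07, SD, n = 3; exact two-sided sign-flip permutation test p = 0.25, the smallest that 3 replicates can give). Of this gap, a part follows from the counting, since 1 summit between a pair counts for both genes. When a gene counted only where its start was the nearest to a summit, an alternative added after the values were seen, the shares were 16.3% and 30.5% and the difference was -14.2 points. Counted by region, 1871 of 12263 single-direction start regions (15.3%, 14.6 to 15.9%) and 989 of 1866 divergent regions (53.0%, 50.7 to 55.3%) held a summit. A divergent region joined the starts of at least 2 genes, whereas a single-direction region could hold 1 start. Regions with more starts cover more DNA, and these shares were not adjusted for that.

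Bound shares differed with the spacing to the divergent neighbour, and not in a steady order. Among divergent pairs the share was 46.5% at 1 to 100 bp and 44.1% at 101 to 200 bp, then 64.3% at 201 to 300 bp and 61.1% at 301 to 400 bp, and each replicate was higher in both of the wider bins than in both of the narrower ones. Genes whose nearest divergent neighbour started 501 to 600 bp away, outside the pair limit, were bound in 48.0% of 396 cases (43.0 to 53.0%), beside 53.1% (48.6 to 57.6%) at 401 to 500 bp. The former was lower in each replicate (40.4 against 45.7%, 46.5 against 51.1% and 44.9 against 53.7%), and the intervals of the thresholded shares overlapped. The share was 23.9% at 601 to 800 bp, 23.3% at 801 to 1000 bp, 21.6% at 1001 to 2000 bp, 17.5% at 2001 to 5000 bp and 13.7% (12.8 to 14.6%) beyond that or with no such neighbour. Replicates gave 25.9, 25.9 and 26.1% at 601 to 800 bp, so the step from the bin before was present in each. Up to a spacing of 1000 bp a single summit can lie within 500 bp of both starts; counting the nearest start only, the shares were 30.6% at 501 to 600 bp and 20.6% at 601 to 800 bp.

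**Figure D1:**
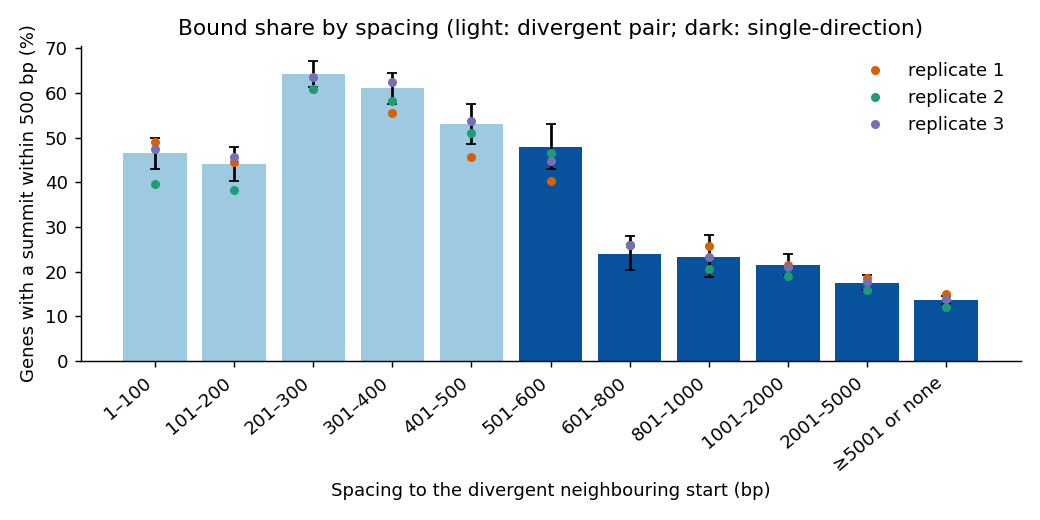
Share of protein-coding genes with a thresholded summit within 500 bp of a start (y axis, percent) by the spacing to the divergent neighbouring start (x axis, bp). Light bars are divergent pairs and dark bars single-direction genes, whiskers are exact 95% intervals, and points are the 3 replicates. The light bars are highest at 201 to 300 bp (64.3%), the dark bar at 501 to 600 bp stands at 48.0% beside a light bar of 53.1%, and the next dark bars lie at 23.9% and below.

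Single-direction genes with more start sites were bound more often. The share was 12.5% of 7614 genes with 1 start, 27% of 1726 with 2, 42.0% of 659 with 3 to 4 and 63.4% (54.5 to 71.6%) of 131 with 5 or more. Counted per start the shares were 12.3% (genes with 1 start), 19.7% (2), 21.6% (3 to 4), with an exact interval of 17.3 to 22.9% at 5 or more, so genes with several starts gave close values per start. Longer genes were bound more often too: 4.54% of genes up to 1000 bp long had a summit, 12.6% at 1001 to 2000 bp, 21.0% at 2001 to 5000 bp, 27% at 5001 to 10000 bp and 31.4% at 10001 to 50000 bp, then 25.5% above 50000 bp. Replicate 1 gave 35.3% in that last class against 24.0 and 25.1% in replicates 2 and 3. The median span of bound genes was 4230 bp and of unbound genes 1898 bp. Genes whose start lay inside another gene were bound in 12.5% of 1941 cases, and across the larger arms the share was between 16.9 and 19.6%, and on chromosome 4 it was 9 of 66 genes (13.6%, 6.43 to 24.3%), with 13.6, 22.7 and 10.6% in the replicates.

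Members sat just upstream of the start. Of the 2000, 1742 (87.1%, 85.6 to 88.5%) lay upstream of the nearest start, and the median position was -123 bp (negative is upstream). Replicates gave 79.9, 87.9 and 86.2% upstream (mean 84.7 ± 4.2%, SD, n = 3) and medians of -96, -150 and -127 bp. Replicate 1 was nearest to the start and replicate 2 farthest. The 50 bp bin from -100 to -50 bp was the fullest, with 16.8% of members, and the interval from 0 to 100 bp held 6.6%. Summits in a replicate shifted from the pooled one by a median of 15, 16 and 7 bp (replicates 1, 2 and 3). Members at genes with several starts lay at the most upstream one in 513 of 1111 cases (46.2%, 43.2 to 49.2%), beside 35.1% for all starts outside pairs of such genes.

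**Figure D2:**
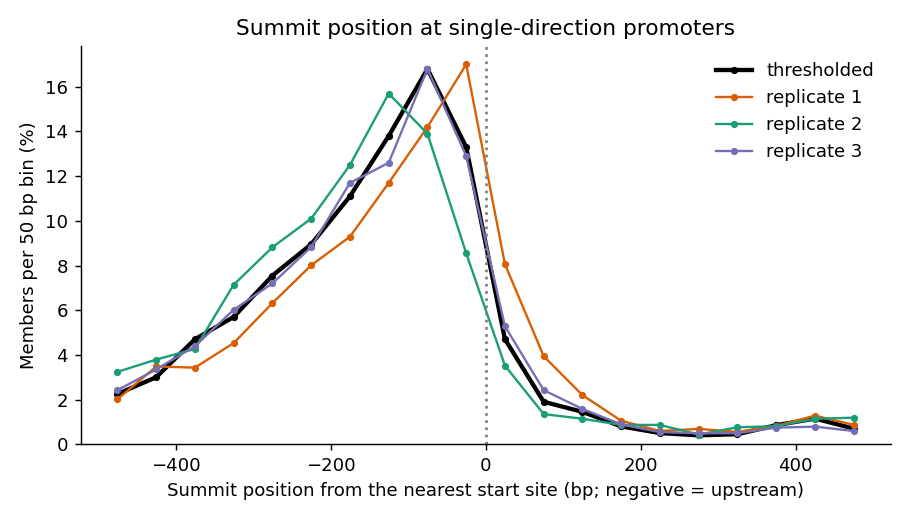
Share of members in 50 bp bins (y axis, percent) by position from the nearest start (x axis, bp; negative is upstream). The black line is the thresholded set and coloured lines are the first 6253 peaks of each replicate, and in each the bulk of the members lies upstream (79.9 to 87.9%).

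The limits of the rule cut through a continuous distribution. Just inside, dlg1 (a scaffold protein of cell polarity) had a summit at -500 bp with signal 256 and CG17896 one at -499 bp with signal 1416, and just outside, CrebA (a bZIP regulator of secretory genes) had one at -501 bp with signal 245 and Clamp (a zinc finger protein of dosage compensation) one at 501 bp with signal 130. There were 59 summits at 451 to 500 bp (median signal 254) and 77 at 501 to 550 bp (median 249). For the spacing, Meics (501 bp) and Ptpmeg (502 bp) had signals of 148 and 221 on the single-direction side, and Polr2I (500 bp) and Sec13 (499 bp) had 133 and 499 on the divergent side. Some members had more company than the rule shows: 123 lay within 500 bp of a start of another gene type, 99 of them a non-coding RNA, and 169 lay within 500 bp of the starts of 2 or more protein-coding genes.

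Signal at members was between that of divergent summits and the rest. Signal is the authors' value on an undefined scale, so it is read as a rank within a list. Members had a median of 217 (quartiles 158 and 348, range 122 to 4421), divergent promoter summits 259 and the others 197. As rank percentiles the medians were 51.7, 62.3 and 44.8, a single-direction minus divergent difference of -10.6. Replicates gave -9.72, -12.1 and -9.72 (mean -10.5 ± 1.38, SD, n = 3; exact two-sided sign-flip permutation p = 0.25). The thresholded difference was -4.85 with pair spacing of up to 1000 bp, -5.28 in the stronger 50% of the peaks and -18.3 in the relaxed pooled list. Members made up 190 of the strongest 500 thresholded peaks, which is 9.5% of members, beside 11.6% of divergent summits and 5.79% of the others, and they made up 9 of the strongest 20.

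The strongest members were found in all replicates at nearly the same rank. The summit of CG14100 ranked first in the thresholded set (signal 4420.7) and 1, 1 and 2 in replicates 1, 2 and 3. Ugalt, a UDP-galactose transporter, ranked 2 (signal 4413.77; replicate ranks 3, 2 and 1), and gish, a casein kinase 1 family member, ranked 4 (3709.99; 2, 4 and 3). ph-p, a Polycomb group protein, ranked 14 (2491.98; replicate ranks 12, 9 and 14), and its summit lay at -475 bp. larp, an RNA-binding protein, ranked 16 (2453.98; 20, 18 and 15). Other genes among the 20 highest were px, CG1888, mRpL41, PNPase, GstE13, Tina-1, eIF6, Sox14, MFS10, CG18549, CG31145, Atf3, Fkbp14, SLC5A11 and Rtnl1. PNPase and GstE13 were the ones of these with a summit downstream of the start, at 83 and 67 bp. The list mixes regulators (Sox14, Atf3, ph-p) with mitochondrial, translation and transport proteins (mRpL41, eIF6, MFS10).

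Support of members by the replicates fell with signal. Of the 2000 members, 1379 (69.0%, 66.9 to 71%) overlapped by at least 1 bp one of the first 6253 peaks of all 3 replicates, beside 68.1% of all thresholded peaks, 76.3% of divergent promoter summits and 64.8% of the others. By quintile of member signal, the strongest had all 400 members so supported, and the next ones 97.2, 83.5, 49.2 and 14.8%. The pooled signal comes from these same replicates, and all lists were cut at 6253 peaks. A fall in support towards the cut therefore follows in part from the ranking. There were 7 members in none of the replicate lists so cut. The overlap with single replicates was 85.4, 82.3 and 93%. In the full lists of replicates 1, 2 and 3 it was 1993, 1945 and 1996 of the 2000 members.

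Words of housekeeping promoters lay near a small share of member summits. TATCGATA lay within 50 bp of 80 member summits (4.0%, 3.18 to 4.95%), beside 2.46% of all thresholded summits, 6.21% of divergent promoter summits, 0.19% of the others, 0.3% of windows 500 bp away from member summits and 0.802% (0.622 to 1.02%) of equally wide windows at the 8353 single-direction genes without a summit. Those last windows were centred 123 bp upstream of the start, the median position of members, whereas members with TATCGATA had the word at a median of -42 bp, which lies outside those windows. In the wider promoter window from -250 to +50 bp of the most upstream start, 12.3% (10.8 to 13.9%) of bound and 5.04% of unbound single-direction genes held it, a smaller contrast. The summit of a bound gene could lie at another of its starts. The difference from divergent summits was -2.21 points (-3.98 to -0.614), and replicates gave 4.35, 3.3 and 4.0% at members against 6.91, 4.87 and 6.49% at divergent summits (mean difference -2.21 ± 0.553, SD, n = 3; exact two-sided sign-flip permutation p = 0.25). Its size varied with the settings, from -0.816 with windows of 25 bp to -6.03 with windows of 100 bp either side. It was -3.26 in the relaxed pooled list and -1.12 among the thresholded peaks found in all 3 replicates. With replicates 1, 2 and 3 left out in turn, it was -1.27, -2.4 and -0.975. Those values are for thresholded peaks overlapped in both other replicates, and the peaks were still called on all replicates pooled. GGTCACACT lay at 36 members (1.8%, 1.26 to 2.48%), beside 1.04% of all thresholded summits, 2.1% of divergent summits and 0.227% of unbound starts (8.38 and 2.98% of bound and unbound genes in the wider promoter window); the difference from divergent summits was -0.3 points (-1.45 to 0.674), and its sign turned with the settings. Either word was held by 113 members.

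The E-box forms of Dpn's own class were not frequent at members. CACGTG lay at 18 members (0.9%, 0.534 to 1.42%), beside 0.8% of all thresholded summits, 1.37% of divergent summits and 1.11% of unbound starts. CACGCG lay at 35 (1.75%, 1.22 to 2.43%), beside 1.18% of all thresholded summits, 1.28% of divergent summits and 1.54% of unbound starts. Windows 500 bp away from member summits held them at 1.45 and 3.15%. Those windows averaged 43.6% GC, against 36.7% at members. In replicate 1, 3.48% of members held CACGCG, against 1.73 and 1.68% in replicates 2 and 3. GC at members was also highest in replicate 1 (39.4%, against 35.4 and 36.9%). The part of GC in these shares was not tested. Altogether 53 members (2.65%, 1.99 to 3.45%) had either form. Differences from divergent summits were -0.47 points (-1.41 to 0.277) for CACGTG and 0.471 points (-0.514 to 1.32) for CACGCG, both within counting error. A match is a description of letters, and no match says nothing of Dpn's binding.

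TATAAA lay at 380 members (19%, 17.3 to 20.8%), beside 21.0% of all thresholded summits, 21.3% of divergent summits, 9.25% of the windows 500 bp away and 16.9% of unbound starts; in the wider promoter window, 42.5% of bound and 45.6% of unbound genes held it. GAGAG lay at 195 (9.75%, 8.48 to 11.1%), beside 9.18% of all thresholded summits, 7.67% of divergent summits, 13.8% of the windows 500 bp away and 14.7% of unbound starts (33.5 and 31.9% of bound and unbound genes in the wider promoter window). At members TATAAA lay at a median of -184 bp from the start (quartiles -266 and -99.2 bp). Whether these matches work as TATA boxes was not tested. The windows 500 bp away averaged 43.6% GC, against 36.7% at members, and the part of GC in the word shares was not tested. The differences from divergent summits were -2.28 points (-5.3 to 0.646) for TATAAA and 2.08 points (-0.0392 to 4.07) for GAGAG. The GAGAG difference was 8.59 points in windows of 100 bp either side. In replicate 1, 13.8% of members held GAGAG, against 8.92 and 10.7% in replicates 2 and 3. Of the 2000 members, 1321 (66.0%, 63.9 to 68.1%) held none of the 6 words tested.

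**Figure D3:**
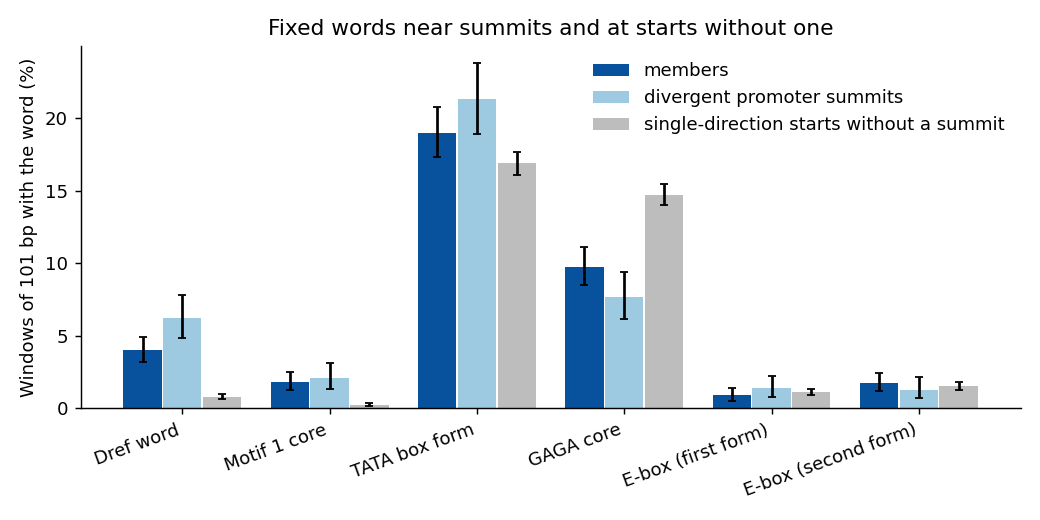
Share of 101 bp windows with each fixed word (y axis, percent) at members, at divergent promoter summits and at single-direction starts without a summit, with exact 95% intervals. The Dref word stands at 4.0, 6.21 and 0.802% and the E-box forms are at or below 1.75% in all 3.

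Read from the promoter side, single-direction genes that carried a housekeeping word were bound more often than those that did not. In the window from -250 to +50 bp of the most upstream start, 640 genes (6.32%) held TATCGATA and 34.2% of them (30.5 to 38.0%) had a summit, against 16.4% of the genes without it. The summit could lie within 500 bp of any start of the gene, so word and summit can be at different starts. Replicates gave 35.8, 28.4 and 35.3% with the word and 17.2, 15.2 and 16.4% without, so the ranges did not overlap. GGTCACACT was held by 398 genes (3.93%), of which 37.4% (32.7 to 42.4%) were bound, against 16.7% without. The 49 genes with both words had 20 bound (40.8%, 27 to 55.8%). CACGTG and CACGCG gave 19.4% against 17.5% and 19% against 17.4%, within the counting error of the genes with a word. Other words searched also went with a higher share: CAGCTG gave 22.0% against 16.8%, GTATNTTT 21.9% against 16.9% and TAGCTA 23.1% against 17.2%. TAGCTA had been seen in earlier results of these data, so its higher share is not an independent result. TCAGTT gave 13.9% against 19% without. CAGGTAG, the word of the early activator Zelda, was held by 179 genes, of which 8.38% (4.77 to 13.4%) were bound, against 17.7% without.

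Counted over all 2080 words of 6 letters (a word and its reverse complement as 1), CGATAG had the highest ratio of members to unbound starts (11.5% against 3.03%, with the same windows centred 123 bp upstream) and the second highest to windows 500 bp away (2.95%), and it contains the word CGATA of the boundary protein BEAF-32. CGCTAG was second by the former (3.55% against 1.26%) and first by the latter (0.7%). The word ATCGAT followed (11.8% against 4.26%), and it lies within the Dref word. The word ACACTG, which overlaps an extended Motif 1, also stood among the highest (10.1% against 3.78%). Of the E-box forms, CACGCG ranked 470 against unbound starts and 1755 against the windows 500 bp away. The form CACGTG ranked 1497 and 1611. The windows 500 bp away averaged 43.6% GC, against 36.7% at members, and the part of GC in these ranks was not tested.

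Strong and weak members differed in sequence and place. From the strongest to the weakest quintile of members by signal, the median position moved from -173 bp through -134, -109 and -98.5 to -83 bp, and GC within 50 bp rose from 32.8 to 38.8%. TATCGATA was held by 5, 10, 18, 22 and 25 of 400 members in those quintiles, GGTCACACT by 0, 7, 8, 7 and 14, and TATAAA by 106, 74, 71, 61 and 68. Each replicate's own quintiles gave the same direction for strongest minus weakest: TATAAA was higher by 10.7 ± 0.643 points (mean ± SD, n = 3, higher in 3 of 3), GC differed by -8.1, -4.5 and -6.6 points, and the median position by -114, -37 and -84 bp. TATCGATA differed by -2.75, -5.68 and -3.2 points. All had an exact two-sided sign-flip permutation p of 0.25 (n = 3), the smallest possible. Among the 200 strongest members 1 held TATCGATA and among the 200 weakest 15. GC moved with the TATAAA share over the quintiles, and its part in that share was not tested. Summits lay within 100 bp upstream of the start at 15.2% of the strongest and 35.8% of the weakest quintile. TATCGATA was searched only within 50 bp of the summit and had a median position of -42 bp from the start. The part of summit position in the TATCGATA share was not tested.

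**Figure D4:**
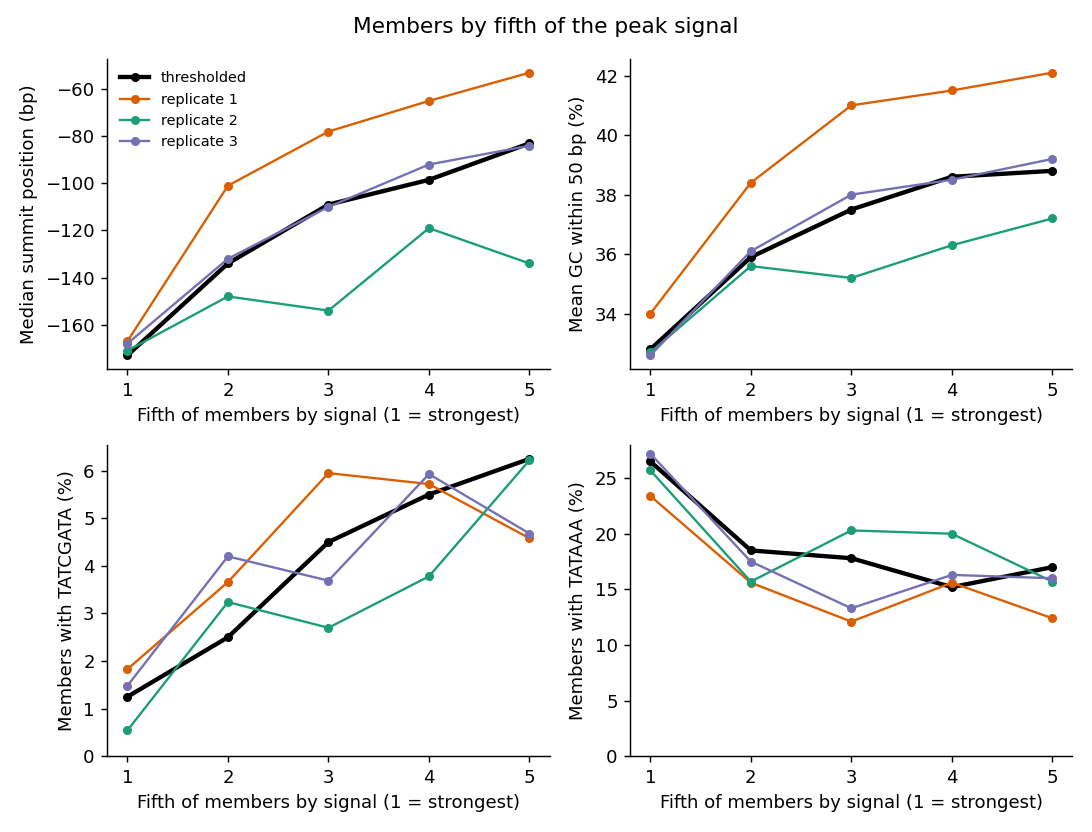
Members split into quintiles by signal (x axis, 1 is the strongest), with the median summit position (bp), mean GC within 50 bp (%), and the shares with TATCGATA and TATAAA (%) on the y axes. The black line is the thresholded set and coloured lines are the replicates; in each, the weakest quintile is higher than the strongest in GC and TATCGATA and lower in TATAAA.

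GC near member summits was below that of the DNA 500 bp away, and the sides of the summit were not alike. By position from the summit, member GC was 40.1% at -500 to -481 bp and 46.8% at 480 to 499 bp. It was lowest at -80 to -61 bp (34.1%), against 37.0% at 0 to 19 bp. Divergent summits had their lowest value at -60 to -41 bp (30.8%), and the others at 0 to 19 bp (32.5%). Members averaged 36.7% within 50 bp (SD over peaks 9.95), divergent summits 34.6% and the others 33.2%, beside 43.6% in windows 500 bp away from members and 38.3% at unbound starts. Members exceeded divergent summits by 2.18 points, with 3.39, 1.76 and 1.98 in the replicates (mean 2.38 ± 0.886, SD, n = 3; exact two-sided sign-flip permutation p = 0.25). The difference was -0.0108 when pairs were limited to a spacing of 250 bp.

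Gene groups differed in how many of their single-direction genes were bound. The lists were described by counts beside the 17.5% of all single-direction genes, with no test. A gene counted as bound with a summit within 500 bp of any of its starts, whereas the genes named are the nearest to member summits. These sets differ: 7 Notch pathway genes were bound and 9 were nearest to a member. For mitochondrial ribosomal proteins the numbers were 8 and 6. Cytoplasmic ribosomal proteins had 32 of 52 bound (61.5%, 47.0 to 74.7%), with a median signal of 207, and 40, 26 and 34 bound in replicates 1, 2 and 3. RpL23A, RpS29, RpL30 and RpL24, components of the large or small ribosomal subunit, were the highest, with signals of 629.143, 460.51, 387.762 and 374.796. Mitochondrial ribosomal proteins had 8 of 20, led by mRpL41 (2597.87), and aminoacyl-tRNA synthetases had 6 of 12, led by beta-PheRS (304.1), with 2, 5 and 7 bound in replicates 1, 2 and 3, so replicate 1 was near the background. Translation initiation factors had 9 of 26, led by eIF6 (2034.14), an anti-association factor of the ribosome, and eIF3c (586.83).

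Regulatory groups were mixed. Polycomb and trithorax group genes had 8 of 13 (61.5%, 31.6 to 86.1%), led by ph-p and by Trl (606.12), which encodes the GAGA factor. Cell cycle genes had 10 of 18, led by Dp (693.988), partner of E2F proteins, and CycE (443.463), the cyclin of S-phase entry. The Notch pathway had 7 of 14, led by gro (1078.66), the Groucho corepressor, numb (992.386), an inhibitor of Notch, neur (323.38), a ubiquitin ligase for its ligands, and mam (287.642), a coactivator. E(spl) and Hairy class genes, Dpn's own family, had 3 of 12 (25%, 5.49 to 57.2%), at E(spl)mdelta-HLH (202.52), E(spl)m3-HLH (474.866) and E(spl)m7-HLH (269.459). Neuroblast factors had 6 of 22 (27.3%), with numb, lola, dlg1 and Galphai the strongest, and proneural genes and partners had 2 of 11, at da and emc.

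Other groups were near or below the background. Vacuolar ATPase subunits had 5 of 20 (interval 8.66 to 49.1%), proteasome subunits 4 of 24, oxidative phosphorylation 6 of 47, Hox genes 1 of 8 (Dfd) and neuronal differentiation genes 1 of 15, at elav, the RNA-binding neuronal marker, with a strong summit (1180.96; rank 114). Gap and pair-rule genes had 0 of 21 in the thresholded set and 3, 0 and 0 in the first 6253 peaks of replicates 1, 2 and 3. Chemosensory receptors had 0 of 163 (upper limit 2.24%), and cuticle proteins had 0 of 137 (upper limit 2.66%). Among all single-direction genes, gene span and the number of starts each went with the share as given above. Their part in these counts was not tested.

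**Figure D5:**
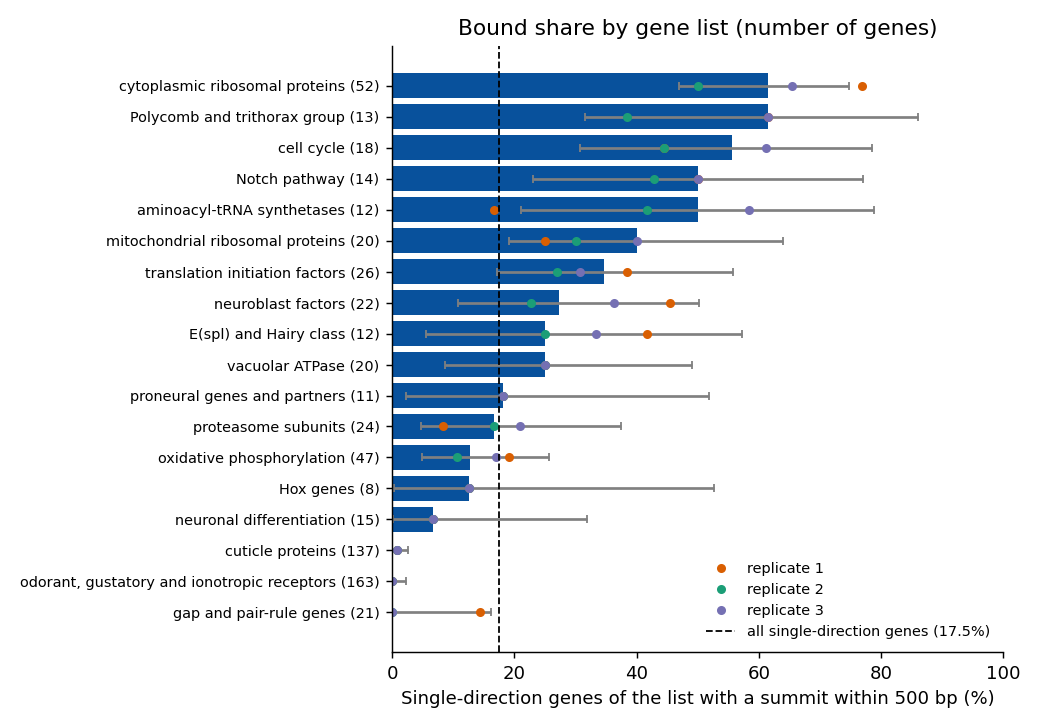
Share of single-direction genes with a summit within 500 bp (x axis, percent) for 18 gene lists with the number of genes, with exact 95% intervals and the 3 replicates as points. The dashed line is the 17.5% of all single-direction genes; cytoplasmic ribosomal proteins and Polycomb and trithorax group genes stand at 61.5% and receptors and cuticle proteins at 0.

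Most members were alone at their nearest gene (1584 of 2000, 79.2%, 77.4 to 81%), and a few genes had several. The 2000 members had 1776 nearest genes, and 192 genes were nearest to 2 or more members and 23 to 3 or more. Rtnl1, a reticulon of the endoplasmic reticulum with 7 starts, had 6 member summits, Ptpmeg2, a tyrosine phosphatase with 6 starts, had 5, and Moe, the cytoskeletal linker moesin with 8 starts, had 4, as did Svil, dnc (a cAMP phosphodiesterase) and milt. At Rtnl1, 2 of the member peaks overlapped each other and had the same best-ranked overlapping peak in each replicate. At milt, 2 overlapping member peaks likewise had the same one in replicates 1 and 2. The number of summits at a gene can thus exceed that of separate peaks. Among members, 423 (21.1%, 19.4 to 23.0%) had another thresholded summit within 1000 bp, beside 20.6% (19.6 to 21.6%) of all thresholded summits.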

How the data were processed

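The data were narrow peak lists on dm6 from ChIP-seq of 3 biological replicates. Per the deposited text listings, relaxed lists were called against a control file and then entered the irreproducible discovery rate procedure (IDR), and the thresholded set came from the replicate lists and the pooled list. The peak caller, aligner, IDR limit and read depth are not given in the sources used here. The deposited signal and the −log10 of the q-value are the authors' values: the signal is on an undefined scale, and the −log10 q was the same in all 6253 thresholded peaks, so it could not grade them. All 6253 were the first 6253 of the pooled list by signal. Lists from other builds were not used here.

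Starts were all transcript starts of Ensembl release 115 gene models (BDGP 6) on the main arms, with transposable elements left out. Each replicate was used as its first 6253 peaks by signal. Shares have exact Clopper-Pearson and differences Newcombe 95% intervals, which cover counting error only. The 9 differences between the single-direction and divergent classes compared genes for the bound share and summits otherwise. They and the differences between the strongest and weakest quintile of members were tested by an exact two-sided sign-flip permutation over 3 replicates. Its smallest p is 0.25, so adjustment cannot change a call. Words were searched on both strands within 50 bp of the summit. Python 3.11.15, numpy 2.4.6, pandas 2.3.3, scipy 1.17.1 and matplotlib 3.10.9 were used, and classes and words were checked on simulated data.

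The members, the lists and the tests were chosen with earlier results of these data known. The genes named are those nearest the 20 strongest members, up to 4 per list, the 3 strongest per word (for printed sequences, the strongest outside exons, upstream of the start), those at the limits of the rule, and up to 5 with the most summits (ties at 4 are named). After values were seen, 2 lists were corrected: the phenylalanine synthetase symbols were matched by their hyphenated form, which added the bound beta-PheRS, and Sidpn replaced an unrelated gene of similar name.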

Additional observations from a re-analysis of the deposited data

How the results depend on the processing

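Across 171 alternatives to 12 results, 7 changed the sign of a difference, and in 53, these 7 included, the value moved by over 1.5 times, mostly for the word differences. The range was -6.03 to -0.816 points for TATCGATA, 0.73 to 8.59 for GAGAG, 0.122 to 1.5 for CACGCG, and -18.3 to -4.85 for the signal rank. The bound-share difference stayed negative, at -14.2 points (nearest start only) to -37.2 points (midpoint of the peak). The single-direction minus divergent difference turned for GGTCACACT (0.204 with starts within 250 bp, 0.282 with 1 start per gene, 0.471 in the strongest 50%), for TATAAA (3.49 with pair spacing of at most 250 bp, 0.685 with windows of 25 bp), for CACGTG (0.0434 with windows of 25 bp) and for GC (-0.0108 with pair spacing of at most 250 bp); the cause was not tested. The count of members was 1033 in the strongest 50% and 6803 in the relaxed pooled list, which hold fewer and more peaks. The upstream share was 81.1% within 1000 bp and 69.7% in the relaxed pooled list. Replicate support was 66.3% within 250 bp, 96.0% in the strongest 50%, 62.0% with an overlap of at least 50% of the peak, and 92.8% with 2 times as many replicate peaks. It was 71.2 to 80.5% with each replicate list left out in turn, while the pooled peaks stayed as called. Depth is unknown, so weak peaks cannot be told from a depth limit. Peaks found in all 3 replicates and the nearest-start count were chosen after seeing the data. Because all samples belonged to 1 group, no samples could be paired between groups. The differences between classes of peaks were paired by replicate: each was taken within a replicate, and the sign-flip tests used those values.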
